A study of Homo sapiens with 8 samples.

Results

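NPPB encodes the precursor of B-type natriuretic peptide, and its transcript level was followed across 8 BeadChip arrays of human liver cancer cells with and without knockdown of SMARCB1. The gene was chosen by its measured difference between knockdown and control and its rank in these same arrays, so its values, differences and ranks are given as a description with no test. It is 1 of 20044 named genes, and 1 of the 47319 probes on the array (ILMN_1763382) reads it. The lines were SK-Hep1 and Huh7, both established and both labelled as liver cancer lines, and SMARCB1 belongs to the core of SWI/SNF, the complexes that slide and evict nucleosomes. The 4 groups of 2 arrays each were SK-Hep1 control (titled shcon, replicates 1 and 2), SK-Hep1 knockdown (shSMARCB1, 11 and 12), Huh7 control (GFP, 1 and 2) and Huh7 knockdown (3 and 4, with the number 11 in both titles). Per the labels' protocol, shRNA cells were kept under puromycin at 1.25 µg/mL. The titles of the controls thus name GFP in Huh7 and not in SK-Hep1, and whether 11 and 12 stand for different hairpins is not given in the sources used here. No source used here says that replicates came from separate cultures, so a p-value here covers the spread between arrays alone, and that spread may be technical.

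Natriuretic peptides are hormones that lower blood volume and pressure. NPPB is made chiefly by heart muscle under stretch, together with its sister gene NPPA. The precursor is cut by furin or corin, the peptide acts through the guanylyl cyclase receptor NPR1 to raise cyclic GMP, and it is removed by the clearance receptor NPR3 and by peptidases such as neprilysin (MME). NPPB is also an early transcriptional target of growth and stress signals in heart cells. Healthy liver cells are not known as a main source of it.

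SMARCB1 itself was checked first. On the log2 intensity scale, its probe ILMN_1758823 read 10.68 and 10.61 in the SK-Hep1 controls, and 9.30 (replicate 11) and 9.67 (replicate 12) in the SK-Hep1 knockdown. It read 10.84 and 10.94 in the Huh7 controls, and 9.22 and 9.27 in the Huh7 knockdown. Within each line, both knockdown arrays lay below both controls, as the labels say. The knockdown left 44.7% of the control intensity in SK-Hep1 (log2 difference -1.16 ± 0.107 SE, limma adjusted p = 0.000113) and 32.0% in Huh7 (-1.65 ± 0.107 SE, limma adjusted p = 3.48e-06). A further SMARCB1 probe read 10.17 and 9.78 in the SK-Hep1 controls against 8.92 and 9.04 in the knockdown. In Huh7 that probe read 10.25 and 10.19 against 8.70 and 8.79, so both probes separated the groups in both lines.

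In SK-Hep1, the NPPB probe read 7.98 and 8.07 in the 2 control arrays, and 10.26 in knockdown replicate 11 and 9.59 in knockdown replicate 12. Both knockdown arrays were above both controls, and replicate 11 was the higher of them. The means were 8.03 ± 0.0667 (SD, n = 2) in the controls and 9.92 ± 0.477 (SD, n = 2) in the knockdown, a difference of 1.90, or 3.73-fold. The 4 differences between single knockdown and control arrays ran from 1.51 to 2.28. The gap of 0.67 between the 2 knockdown arrays was wider than the corresponding gap of 99.7% of all genes tested (median 0.107): the replicates differed in the size of the increase and not in its direction.

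In Huh7, the NPPB probe read 7.21 and 7.33 in the control arrays, and 10.72 in each of the 2 knockdown arrays. The groups were far apart and the knockdown arrays nearly coincided, 0.00171 apart; only 1.64% of genes had a smaller gap. The means were 7.27 ± 0.0863 (SD, n = 2) and 10.72 ± 0.00121 (SD, n = 2), a difference of 3.45, or 10.9-fold, with single-array differences of 3.39 to 3.51. Array background was taken from 637 probes for receptors and structural proteins that liver cells should not make (smell, taste and pheromone receptors, beta-defensins, keratin-associated proteins), whose 95th percentile was 7.003. The Huh7 controls lay above 97.8% and 98.1% of these probes and the SK-Hep1 controls above 99.7% of them. These positions hold for the deposited values, in which the gene means of the 2 lines nearly coincide, and do not measure how far either control was from background in the cells. With a background level subtracted from each array, the difference was 2.43 in SK-Hep1 and 4.87 in Huh7. Both sizes depend on those positions and carry the same limit.

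**Figure D1:**
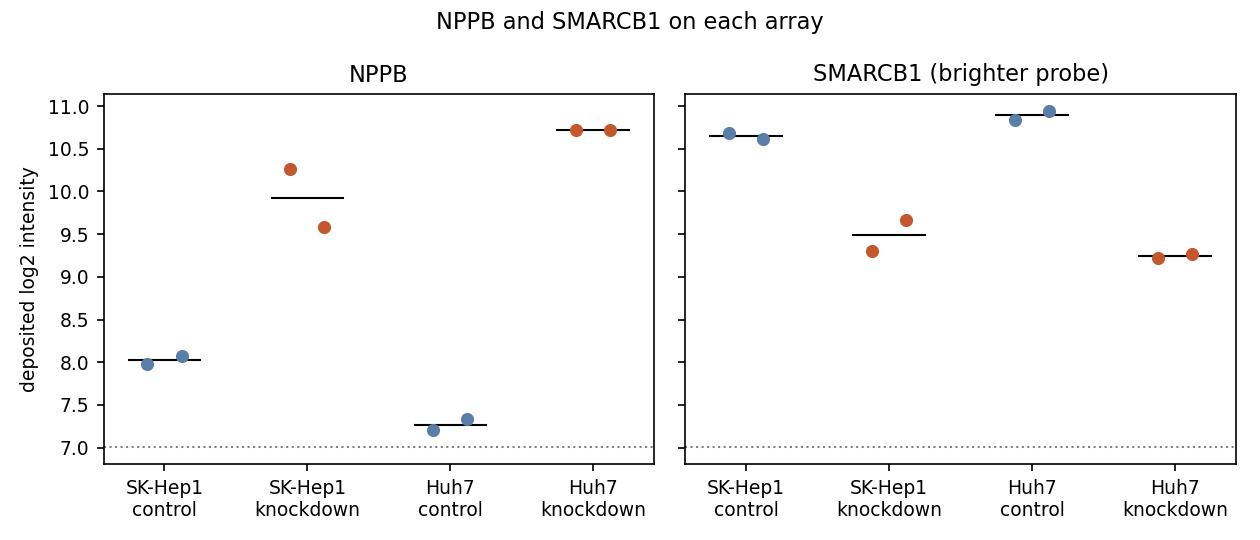
NPPB and SMARCB1 log2 intensity on each of the 8 arrays. Each point is 1 array, the horizontal bars are group means, and the dotted line is the 95th percentile of the background probes (7.003). NPPB lies between 7.21 and 8.07 in the controls and between 9.59 and 10.72 in the knockdown arrays, while SMARCB1 lies lower in every knockdown array.

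The levels of the 2 lines cannot be set against each other, because the deposited values had been brought to nearly the same mean per gene in each line. The NPPB line means were 8.98 in SK-Hep1 and 8.99 in Huh7, so a lower control in Huh7 follows from a larger difference there and is no result. In the deposited values, the difference between knockdown and control was larger in Huh7 by 1.55, a ratio of folds of 2.93. By that signed value NPPB was 26th of 12411 genes tested, and by its size 66th. Whether the unstated normalization also changed the size of differences within a line is not known. The controls of the 2 lines also had unlike titles, shcon and GFP. In extracts of whole cultures, a larger share of cells with NPPB transcript and more transcript per cell cannot be told apart.

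Among the 12411 genes tested, NPPB had the largest rise in Huh7 and the sixth largest in SK-Hep1, or ranks 1 and 6. Leaving out SK-Hep1 knockdown replicate 11 moved the latter to 17 with a difference of 1.56, and leaving out replicate 12 moved it to 2 with 2.24. In Huh7 the rank stayed 1 whichever array was left out. Directly above NPPB in SK-Hep1, at ranks 3 to 5, stood SERPINA9 (2.26, against -0.09 in Huh7), TM4SF4 (2.20 and 1.34) and CSF3 (1.94 and 0.15). The genes at ranks 1 and 2 are not named here. Next below were SCG5 (1.85 and -0.35), SPOCD1 (1.79 and -0.27) and HMOX1 (1.63 and 0.75). In Huh7 the genes after NPPB were TAGLN (2.12, against 0.83 in SK-Hep1), CCL2 (2.12 and 0.93) and LYPD6B (1.97 and 1.00). TAGLN encodes an actin-binding protein of smooth muscle, CCL2 a chemokine that attracts monocytes and HMOX1 haem oxygenase. SERPINA9, CSF3, SCG5 and SPOCD1 were thus near 0 or negative in Huh7, while the 3 genes after NPPB in Huh7 were also higher in SK-Hep1.

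Ordered by the smaller of the 2 rises, NPPB stood first at 1.90, and TM4SF4, a tetraspanin-like membrane protein, came next at 1.34. A rise of 1 log2 unit or more was reached by 46 genes in SK-Hep1 and 86 in Huh7, and a fall of that size by 13 and 84. In both lines together, 3 genes reached it upward (NPPB, TM4SF4 and LYPD6B) and 2 downward (SMARCB1 and the ephrin ligand EFNA1, at -1.66 and -1.11), while 5 genes reached it in opposite directions. The 10 genes with the largest rises in each line had 1 in common, 10% of each list, and that was NPPB. The top 50 had 3 in common, 6% of each list, and the top 100 had 10, which is 10% of each.

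**Figure D2:**
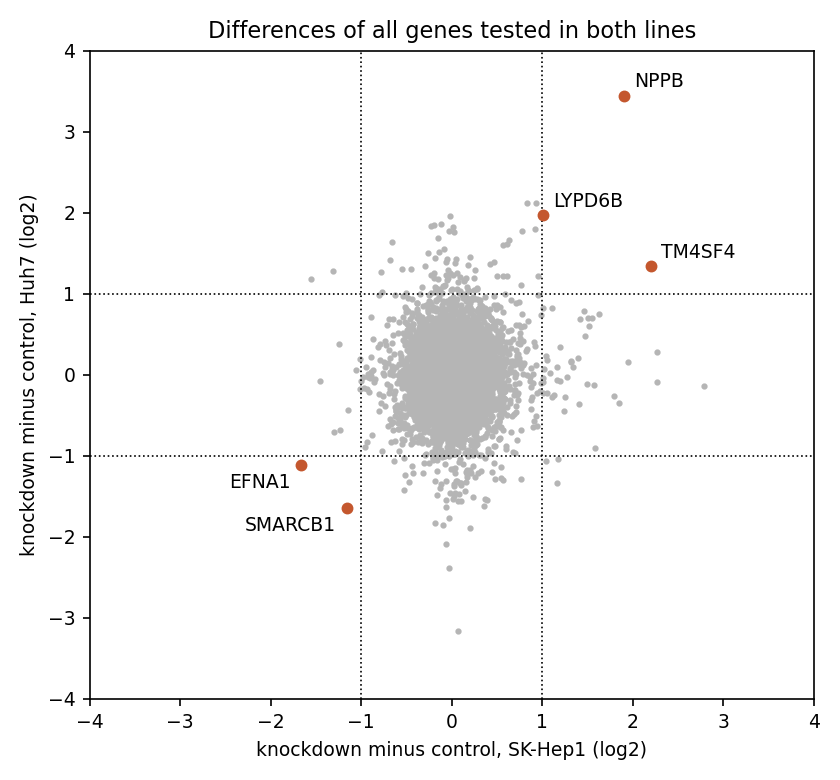
Log2 difference, knockdown minus control, in SK-Hep1 (x axis) and Huh7 (y axis) for all 12411 genes tested. Each small point is 1 gene, NPPB is the point at 1.90 and 3.45, the dotted lines mark 1 log2 unit, and the labelled genes differ by at least that much in the same direction in both lines.

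Both genes were also set side by side on each knockdown array. Against its own control mean, SMARCB1 was lower by -1.35 in SK-Hep1 replicate 11 and -0.98 in replicate 12, and NPPB was higher by 2.24 and 1.56. In the Huh7 replicates 3 and 4, SMARCB1 differed by -1.67 and -1.62, and NPPB by 3.45 in both. SK-Hep1 replicate 12 had the smallest SMARCB1 loss and the smallest NPPB rise, and both Huh7 arrays exceeded both SK-Hep1 arrays in each; between the 2 Huh7 arrays the SMARCB1 loss differed and the NPPB rise hardly did. Over the 8 arrays, after subtracting each line's mean, Pearson's r between SMARCB1 and NPPB was -0.992. This is a description of 8 points that share 2 lines and a single step from control to knockdown. By the same measure, 234 genes stood at -0.95 or lower. The limits given above on comparing differences between the lines hold here too.

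**Figure D3:**
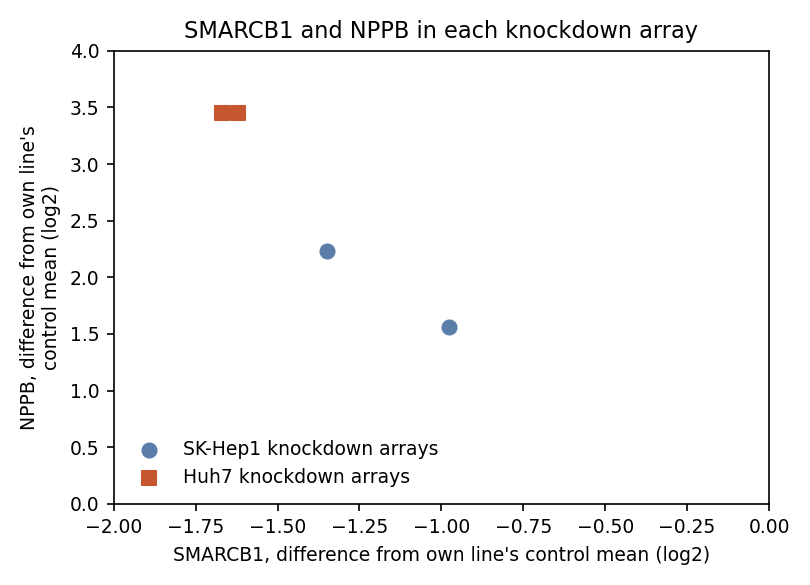
NPPB (y axis) against SMARCB1 (x axis) on each of the 4 knockdown arrays, both as log2 difference from the mean of the control arrays of the same line. The points run from SK-Hep1 replicate 12 (SMARCB1 -0.98, NPPB 1.56) to Huh7 (SMARCB1 -1.67 and -1.62, NPPB 3.45).

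The genes whose pattern was most like that of NPPB were found by the same correlation over 8 arrays, which share the 2 lines and the knockdown step, so high values are common: 235 genes reached 0.95 and 234 reached -0.95. The closest were COXFA4L3 (0.997), SVIL and DNAJA1 (0.996 each), IL32 (0.995), ALG13 (0.994), SLC20A2 (0.993), DENND2D (0.992), BRI3BP and HKDC1 (0.991 each) and EPDR1 (0.99). All 10 had smaller differences than NPPB, from 0.14 (SLC20A2) to 0.61 (COXFA4L3) in SK-Hep1 and from 0.28 (SLC20A2) to 1.22 (COXFA4L3) in Huh7. The most opposite were UQCC2 (-0.998), HMGN4 and HES2 (-0.997 each), EXOSC7 and ITPR1 (-0.995 each). Their differences ran from -0.21 (HMGN4) to -0.37 (ITPR1) in SK-Hep1 and from -0.36 (HMGN4) to -0.63 (ITPR1) in Huh7.

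NPPA, which encodes atrial natriuretic peptide and lies next to NPPB on chromosome 1, stayed at background: its probe lay between 6.758 and 6.904 on all 8 arrays, with differences of -0.01 in SK-Hep1 and 0.04 in Huh7. The NPPB promoter is not used here. The NPPA promoter is shown because it belongs to the sister gene that stayed dim. Those of EDN1 (endothelin 1, a vessel-constricting peptide) and TM4SF4 are shown because both genes were higher after knockdown in both lines; these 2 were chosen after their values were seen. The sequences are from RefSeq on GRCh38.p14, 250 bases before to 50 after the start of transcription, 5′ to 3′ on the gene's strand, at chr1:11847734-11848033 (minus strand), chr6:12290111-12290410 (plus strand, the most downstream of 3 listed starts) and chr3:149474447-149474746 (plus strand). Capitals mark matches, on either strand, to 4 short motifs. TGANTCA is the site of AP-1 factors. CATTCC is the M-CAT site, which TEAD factors bind. AGATAA is the site of GATA zinc finger factors. TATAAA is the core of the box that places the start of transcription. The motifs do not overlap one another in these windows.
NPPA: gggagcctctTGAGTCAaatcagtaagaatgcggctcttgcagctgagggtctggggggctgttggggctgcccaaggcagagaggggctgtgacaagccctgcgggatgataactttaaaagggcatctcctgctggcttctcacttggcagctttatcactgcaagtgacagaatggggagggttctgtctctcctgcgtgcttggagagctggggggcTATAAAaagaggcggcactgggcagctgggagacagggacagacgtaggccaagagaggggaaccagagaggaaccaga
EDN1: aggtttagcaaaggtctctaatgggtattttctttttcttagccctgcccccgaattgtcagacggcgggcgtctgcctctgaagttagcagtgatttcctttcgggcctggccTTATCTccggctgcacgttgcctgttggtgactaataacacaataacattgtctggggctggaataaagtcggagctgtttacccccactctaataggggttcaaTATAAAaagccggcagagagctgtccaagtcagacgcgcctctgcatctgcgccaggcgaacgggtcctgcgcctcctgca
TM4SF4: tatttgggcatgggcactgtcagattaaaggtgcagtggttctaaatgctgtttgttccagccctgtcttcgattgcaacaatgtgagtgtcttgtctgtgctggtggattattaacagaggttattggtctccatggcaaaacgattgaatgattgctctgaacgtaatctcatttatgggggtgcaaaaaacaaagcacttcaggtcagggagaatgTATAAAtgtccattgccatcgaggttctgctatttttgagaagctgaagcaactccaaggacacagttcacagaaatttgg
The match to the TATA box lay at -29 in NPPA and at -31 in EDN1 and TM4SF4, counted from the start. NPPA held an AP-1 match at -240 and EDN1 a GATA match at -136, and none of the 3 held M-CAT letters in this window. Of 35116 promoters of the same length, 7.71% held the AP-1 letters and 14% those of M-CAT. The letters of the GATA site were in 10.3%, and the TATA box was in 11.5%. A match is a run of letters only.

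The rest of the natriuretic peptide pathway was followed with a list of 32 ligands, processing enzymes, receptors, clearance enzymes and cyclic GMP effectors. The array names 31 of them, and 17 were above background by their mean over the 8 arrays and were tested. The other 14 lay between 6.25 and 7.16 on single arrays. The other ligands NPPC (6.57 to 6.80) and OSTN (6.38 to 6.68), the receptors NPR1 (6.88 to 7.07) and NPR3 (6.41 to 6.80), the heart convertase CORIN (6.31 to 6.49) and the cyclic GMP-dependent kinase PRKG1 (6.73 to 7.14) were among these. The mean over the arrays was thus not above background for the signalling receptor or for the clearance receptor, although single arrays of NPR1 passed the level of 7.003. NPR2 is not analysed here.

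Of the 17 tested, 7 rose and 0 fell in SK-Hep1, where 16.8% of all genes were called at an adjusted p under 0.05 (8.31% upward, 8.54% downward). In Huh7, 3 rose and 3 fell, where 38.9% of all genes were called (19.4% upward, 19.5% downward). The list's median difference was 0.13 in SK-Hep1 and 0.01 in Huh7, beside -0.01 and 0.00 over all genes. The SK-Hep1 count fell to between 2 and 4 without any single array other than knockdown replicate 12, and the Huh7 count fell to 2 without control replicate 1 and to 3 without knockdown replicate 3 or 4. The strongest call in SK-Hep1 was RGS2, a target of cyclic GMP signalling that damps G protein signals: it read 10.32 to 10.49 in the controls and 11.24 to 11.46 in the knockdown (0.94 ± 0.093 SE, limma adjusted p = 0.000173). RGS2 in Huh7 differed by -0.22 (limma adjusted p = 0.0856).

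FURIN, a protease that cuts the NPPB precursor, read 8.49 to 8.64 in the SK-Hep1 controls and 8.85 to 9.17 in the knockdown (0.45 ± 0.104 SE, limma adjusted p = 0.0162). In Huh7 it read 8.59 to 8.72 and 8.99 to 9.003 (0.35 ± 0.104 SE, limma adjusted p = 0.0235). The groups did not overlap in either line, but the calls were lost with background subtracted (adjusted p = 0.0586 and 0.0638), and that in SK-Hep1 also without control replicate 2 (adjusted p = 0.103) or knockdown replicate 11 (0.0517), and in Huh7 without control replicate 1 (0.155), knockdown replicate 3 (0.0946) or 4 (0.088). PDE5A, which breaks down cyclic GMP, was called higher in both lines: from 9.41 to 9.73 in the controls to 9.91 to 9.97 in SK-Hep1 (0.37, limma adjusted p = 0.0266), and from 9.39 to 9.45 to 10.11 to 10.17 in Huh7 (0.72, limma adjusted p = 0.000308). Its probes gave -0.06 to 0.37 in SK-Hep1 and 0.39 to 0.72 in Huh7, and the SK-Hep1 call was lost without control replicate 1 (adjusted p = 0.155) or knockdown replicate 11 (0.0728). With the probes averaged the SK-Hep1 value was 0.10 (adjusted p = 0.397), and the call was also lost with background subtracted (0.0823), array weights (0.0633) and SK-Hep1 fitted alone (0.0705), while that in Huh7 held in each of these.

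The exporters of cyclic nucleotides were called in opposite directions in the 2 lines. ABCC4 was called at 0.29 in SK-Hep1 (limma adjusted p = 0.0143, but 0.0834 without control replicate 1, 0.0723 with that line fitted alone and 0.0804, at 0.19, with probes averaged) and at -0.25 in Huh7 (limma adjusted p = 0.0119, lost without any of the 4 Huh7 arrays, 0.0568 to 0.0747). ABCC5 was called at 0.27 in SK-Hep1 (limma adjusted p = 0.0391) and -0.69 in Huh7 (limma adjusted p = 0.000116). Its 2 probes disagreed, at -0.28 and 0.27 in SK-Hep1 and -0.69 and 0.27 in Huh7, the SK-Hep1 call was lost in 7 of 8 fits with 1 array left out (0.0613 to 0.152), and with the probes averaged the values were -0.0040 and -0.21, so its direction in SK-Hep1 is uncertain. The other SK-Hep1 calls were DPP4, a peptidase that trims the peptide (0.30, limma adjusted p = 0.0323), and the kinase substrate VASP (0.24, 0.0410), each lost in 7 of those 8 fits (0.0531 to 0.117 and 0.0553 to 0.149), and both lost with background subtracted (0.0678 and 0.0694), array weights (0.0712 and 0.112) and that line fitted alone (0.0931 and 0.123), VASP also without the filter (0.0709). The other Huh7 calls were the insulin-degrading enzyme IDE, which also degrades natriuretic peptides (0.25, limma adjusted p = 0.0132; 0.108 without control replicate 1 and 0.106 without knockdown replicate 4), and the convertase PCSK6 (-0.31, 0.00869; 0.0716 without control replicate 1 and 0.0546 without knockdown replicate 3). Neprilysin (MME) differed by 0.00 in both lines, the peptidase MEP1A by 0.02 and -0.05, and GALNT1, a glycosyltransferase, by 0.13 and 0.09.

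**Figure D4:**
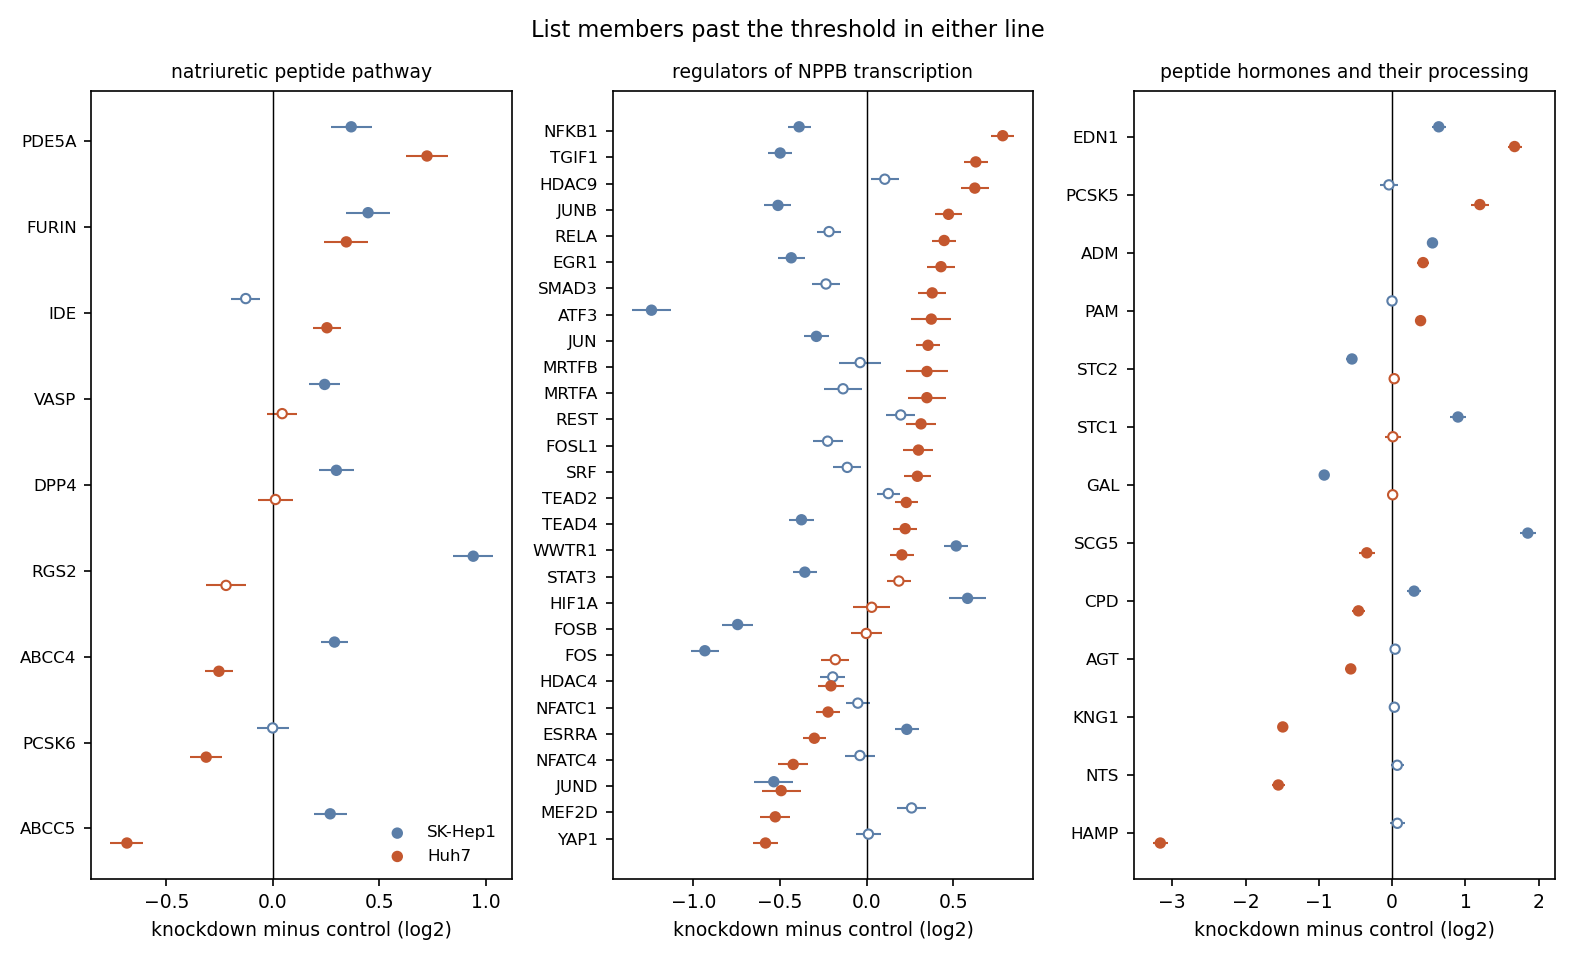
Log2 difference, knockdown minus control, in SK-Hep1 (blue) and Huh7 (orange) for genes of 3 lists that passed the threshold in either line. Points are fitted differences, bars are standard errors, and filled points passed an adjusted p of 0.05. EDN1 lies at 0.64 and 1.67 and ATF3 at -1.24 and 0.37; for HDAC9, NFATC4 and HDAC4 a Huh7 group was not above background, so those Huh7 differences are not exact.

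A list of 50 factors known or proposed to act on NPPB transcription had 44 members above background. In SK-Hep1 3 rose and 11 fell, a called share of 31.8% beside 16.8% of all genes. In Huh7 17 rose and 7 fell, 54.5% beside 38.9% of all genes. The list's medians were -0.09 and 0.11, beside -0.01 and 0.00 over all genes. The Huh7 count fell to between 13 and 15 without control replicate 1, control replicate 2 or knockdown replicate 4. The lines differed in the size of the difference for 24 of the 44, where 31.3% of all genes did. Of the 44, 8 were called in opposite directions and 2 in the same, beside 4.28% and 4.57% of all genes.

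The AP-1 family, factors induced early by stress and growth signals, was taken as a group of 8 after its values were seen. In SK-Hep1 6 of the 8 fell and 0 rose, beside 8.54% and 8.31% of all genes, and nothing particular to the group can be read from a choice made on these values. ATF3 fell by 1.24 (limma adjusted p = 0.000113), FOS by 0.93 (8.53e-05), FOSB by 0.74 (0.000512), JUND by 0.54 (0.0107) and JUNB by 0.51 (0.00209). The other ATF3 probe gave -0.65 in SK-Hep1. JUN fell by 0.29 (limma adjusted p = 0.0212), and its call was lost without control replicate 1 (0.0519), control replicate 2 (0.106) or knockdown replicate 12 (0.0523), as was that of JUND without control replicate 2 (0.0794). With background subtracted, both were lost (JUN 0.0563, JUND 0.0559), and JUN also with array weights (0.0665) and that line fitted alone (0.0735). In Huh7 4 rose and 1 fell, beside 19.4% and 19.5% of all genes. JUNB rose by 0.47 (limma adjusted p = 0.00106) and JUN by 0.35 (0.00339). ATF3 was at 0.37 (limma adjusted p = 0.0256), lost without any single Huh7 array (0.0611 to 0.136) and with a further probe at -0.09, and FOSL1 was at 0.30 (0.0198), lost without either control or without knockdown replicate 4 (0.066 to 0.127). Background subtraction ended the calls of ATF3 (0.0843) and FOSL1 (0.0505) and moved JUNB to -0.85 in SK-Hep1 and 0.78 in Huh7, and with probes averaged ATF3 was at 0.14 in Huh7 (0.11). JUND fell by 0.49 (limma adjusted p = 0.00671; 0.0501 without control replicate 1). The part of these factors in the NPPB difference was not tested.

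Some other regulators were also called in opposite directions. NFKB1, an NF-kB subunit, fell by 0.39 in SK-Hep1 (limma adjusted p = 0.00403) and rose by 0.79 in Huh7 (1.88e-05). The homeobox repressor TGIF1 went from -0.50 (0.00138) to 0.63 (0.000105), and the immediate early factor EGR1 from -0.43 (0.00474) to 0.43 (0.00187). The 3 TGIF1 probes gave -0.54 to -0.08 in SK-Hep1 and 0.21 to 0.63 in Huh7. In Huh7, RELA rose by 0.45 (limma adjusted p = 0.000741), SMAD3 by 0.38 (0.00467) and the repressor REST by 0.31 (0.0148; 0.11 without control replicate 1 and 0.0999 without knockdown replicate 3). With background subtracted RELA was at 0.68 and REST at 0.82. The histone deacetylase HDAC9 read 6.78 and 6.95 in the Huh7 controls, both not above background, and 7.43 and 7.55 in the knockdown (limma adjusted p = 0.000266). Counting the controls at the background level, the knockdown was at least 1.40-fold higher by this probe, the brighter of 2. By the other probe the Huh7 difference was 0.25. The 1.40-fold bound holds for 1 probe and for the deposited values alone, since the lines were aligned gene by gene in them. MEF2D fell there by 0.53 (limma adjusted p = 0.000997). In SK-Hep1 the hypoxia factor HIF1A rose by 0.58 (limma adjusted p = 0.00503; 0.0508 without control replicate 1) and STAT3 fell by 0.36 (0.00714; 0.0568 without control replicate 1).

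Of the TEAD factors and their coactivators, a further group of 6 chosen after the values were seen, WWTR1 (TAZ) rose by 0.52 (limma adjusted p = 0.000991; 0.85 with background subtracted) and TEAD4 fell by 0.38 (0.00581) in SK-Hep1. In Huh7 YAP1 fell by 0.58 (limma adjusted p = 0.00023). The Huh7 calls for WWTR1 (0.20), TEAD4 (0.22) and TEAD2 (0.23) did not hold when 1 array was left out: WWTR1 and TEAD4 were lost in 4 of 8 fits and TEAD2 in 3 (adjusted p up to 0.2, 0.137 and 0.15), and without the filter on dim probes WWTR1 (0.0748) and TEAD4 (0.0532) were lost too. The serum response factor SRF and its coactivators MRTFA and MRTFB were called higher in Huh7, at 0.29, 0.35 and 0.35, and were lost in 3, 4 and 5 of the 8 fits. With background subtracted MRTFA (0.52, adjusted p = 0.0822) and MRTFB (0.71, 0.102) were lost. Of 8 heart transcription factors, 5 were above background, with 0 called in SK-Hep1 and 1 called lower in Huh7, where 19.5% of all genes were. That 1 was MEF2D (-0.53, limma adjusted p = 0.000997). GATA4 differed by 0.13 and -0.05 and NKX2-5 by -0.10 and 0.10, with adjusted p of 0.485 and 0.741 and of 0.453 and 0.375 in limma's test.

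Most heart muscle genes stayed at background in both lines. Of 25 listed, 22 are named on the array and 4 were above background, and the mean of the 22 lay between 7.35 and 7.37 in the SK-Hep1 controls, 7.34 and 7.40 in the SK-Hep1 knockdown, 7.33 and 7.37 in the Huh7 controls and 7.38 and 7.39 in the Huh7 knockdown. ATP2A2, the calcium pump of the sarcoplasmic reticulum, was called at 0.36 in SK-Hep1 (limma adjusted p = 0.0229) and 0.35 in Huh7 (0.0132). The first call was lost without either control or knockdown replicate 12 (0.0879 to 0.104), with background subtracted (0.0757) and with array weights (0.0841), and the second without control replicate 1 (0.137) or knockdown replicate 4 (0.0851). FHL2 was called at -0.29 in Huh7 (limma adjusted p = 0.0147) and lost without either control or knockdown replicate 4 (0.0539 to 0.139). ANKRD1, often induced with NPPB in stressed heart, differed by 0.07 and 0.22 (limma adjusted p = 0.691 and 0.147), and TNNI3 by 0.04 and -0.06. ACTA1, the skeletal muscle actin of the fetal heart programme, was looked at after its values were seen: it was below the filter over all arrays, but read 6.42 and 6.41 in the Huh7 controls and 7.56 and 7.49 in the Huh7 knockdown. The Huh7 knockdown was at least 1.44-fold higher, counting the controls at the background level, a bound that holds for the deposited, aligned values alone. In SK-Hep1 it read 6.81 and 7.05 against 6.83 and 7.13, and the groups overlapped.

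Other peptide hormones and their processing enzymes were listed to see whether NPPB stood among secreted peptides: 39 of 47 are on the array and 23 were tested. In SK-Hep1 5 rose and 2 fell, and in Huh7 4 rose and 6 fell, with medians of 0.04 and 0.01. Over all genes 16.8% were called in SK-Hep1 and 38.9% in Huh7. EDN1 read 10.60 to 10.76 in the SK-Hep1 controls and 11.20 to 11.42 in the knockdown (0.64 ± 0.096 SE, limma adjusted p = 0.00207). In Huh7 it read 10.04 to 10.20 and 11.75 to 11.83 (1.67 ± 0.096 SE, limma adjusted p = 1.51e-06). EDN1 and the vessel-dilating peptide adrenomedullin (ADM, 0.55 and 0.42, limma adjusted p = 0.0015 and 0.00219) were the 2 members called in the same direction in both lines. That held for 4.57% of all genes.

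The remaining hormone calls mostly belonged to 1 line. In SK-Hep1 SCG5, a chaperone of prohormone convertase, rose by 1.85 (limma adjusted p = 4.88e-06). Its controls, at 6.997 and 7.086, lay at the background level, and with background subtracted the value was 3.55. STC1 rose there by 0.90 (limma adjusted p = 0.000512), while galanin (GAL) fell by 0.93 (2.83e-05) and STC2 by 0.55 (0.00116). In Huh7 hepcidin (HAMP), the liver hormone of iron balance, fell by 3.16 (limma adjusted p = 1.81e-07), neurotensin (NTS) by 1.55 (1.51e-06), kininogen (KNG1) by 1.49 (5.95e-07) and angiotensinogen (AGT) by 0.57 (0.000253). The convertase PCSK5 rose there by 1.20 (limma adjusted p = 6.38e-05) and the amidating enzyme PAM by 0.39 (0.00187). With background subtracted, KNG1 was at -2.50 and PCSK5 at 1.84 in Huh7 and GAL at -1.40 in SK-Hep1. CPD was called at 0.30 in SK-Hep1 (limma adjusted p = 0.0486), lost in 7 of 8 fits with 1 array left out (0.0644 to 0.213), without the filter (0.0643) and with background subtracted (0.113), array weights (0.0983) and that line fitted alone (0.107), and fell by 0.46 in Huh7 (0.00307). SCG5 was called at -0.35 in Huh7 (limma adjusted p = 0.0264) and lost without either control or knockdown replicate 4 (0.0901 to 0.162) and with background subtracted (-0.59, 0.0528).

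Genes next to NPPB on chromosome 1, 10 on each side, gave 18 on the array and 13 tested, of which 3 rose and 1 fell in SK-Hep1 and 3 rose and 4 fell in Huh7, beside 16.8% and 38.9% of all genes called. The SK-Hep1 count fell to 2 without control replicate 1 or 2. The direct neighbour NPPA was at background, and the chloride transporter CLCN6 beyond it was called lower in both lines, at -0.42 in SK-Hep1 (limma adjusted p = 0.0243, lost without either control or knockdown replicate 11, 0.0507 to 0.157, with background subtracted, 0.0827, and with that line fitted alone, 0.0592) and -0.65 in Huh7 (0.00118). On the other side, KIAA2013 differed by 0.06 in SK-Hep1 and rose by 0.34 in Huh7 (limma adjusted p = 0.00289). The collagen-modifying enzyme PLOD1 was called at 0.28 (limma adjusted p = 0.0198, lost without either control or knockdown replicate 11, 0.0569 to 0.079, with background subtracted, 0.0501, array weights, 0.0538, and that line fitted alone, 0.0882) and 0.31 (0.00483). The largest difference among them was that of TNFRSF1B, a tumour necrosis factor receptor and the sixth gene after NPPB, which rose by 1.58 in SK-Hep1 (limma adjusted p = 0.000186; 2.48 with background subtracted) and differed by -0.13 in Huh7. PLOD1 was the tested neighbour called higher in both lines, at a small part of the NPPB differences.

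Markers of other cell types were read on the same arrays. Hepatocyte genes were above background for 11 of 11, with 2 rising in SK-Hep1 and 1 rising and 4 falling in Huh7, shares of 18.2% and 45.5% beside 16.8% and 38.9% over all genes. Since the lines had been aligned gene by gene in the deposited values, these levels do not check which line is which. Endothelial markers were above background for 1 of 8 (PECAM1), with CDH5, VWF and KDR at background, and their mean lay between 6.59 and 6.73 in every array. Of 5 immune markers, PTPRC and CD3E were at background, and CD68, ITGAM and CD14 were above it. The mean of all 5 lay at 7.96 to 8.02 in the SK-Hep1 controls and 8.24 to 8.32 in the knockdown, and at 8.19 to 8.24 and 8.005 to 8.06 in Huh7. CD14 differed by 1.04 in SK-Hep1 and -1.07 in Huh7 (limma adjusted p = 0.000398 and 0.000103), CD68 by 0.61 and -0.15 (0.000378 and 0.12), and ITGAM the other way, by -0.07 and 0.31 (0.627 and 0.017). Their part in the NPPB difference was not tested.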

How the data were processed

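Total RNA (0.55 µg) was labelled and hybridised to Illumina BeadChips, per the labels' protocols. The values are log2 intensities as deposited by the authors, made with GenomeStudio 2011.1 per the submitters' processing notes; how they were normalized, and whether background was removed, is not given in the sources used here. Array medians lay between 6.931 and 6.934. The deposited raw signal table has 16 value columns that match no label and was left unused, so detection p-values were not available. Probes were kept when their mean exceeded the 95th percentile of 637 background probes (21440 of 47319, 45.3%). Each gene was represented by its brightest probe on average. The 12411 genes were fitted with limma 3.58.1 in R 4.3.3 over the 4 groups (lmFit, eBayes, 4 residual degrees of freedom, Benjamini-Hochberg over all genes, threshold 0.05), after the code was tested on simulated data. With 2 arrays a group, the number of arrays limits the precision.

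The gene, the lists and the tests were chosen with earlier results of these data known. Named were NPPB and SMARCB1, called list members (up to 8 per list and line), natriuretic ligands, receptors and processing enzymes, the 10 most and 5 least alike genes, 3 rank neighbours on each side and genes past 1 log2 unit in both lines. Alternatives were background subtraction, quantile normalization, other filters, averaged probes, array weights, each line alone and leaving out each array.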

Additional observations from a re-analysis of the deposited data

Results flagged for a closer look

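Among the listed genes other than the cell type markers, 15 were called in both lines and also passed limma's test of the difference between the lines. The share of all genes that met both conditions was not counted, so the number stands as a description. A call in opposite directions largely brings that test with it, so passing is no separate support. By that test alone, 24 of 44 regulators, 12 of 23 hormone genes, 6 of 17 natriuretic pathway genes, 5 of 13 neighbours and 1 of 4 heart muscle genes passed, beside 31.3% of all genes. Values are the log2 difference in Huh7 minus that in SK-Hep1, with limma's adjusted p. The limits given above on comparing differences between the lines hold for them too, also with background subtracted.

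Among regulators of NPPB transcription, the value was 1.62 for ATF3 (9.71e-05), 1.18 for NFKB1 (2.25e-05), 1.13 for TGIF1 (4.2e-05), 0.985 for JUNB (0.000184), 0.865 for EGR1 (0.000387), 0.645 for JUN (0.00121) and 0.599 for TEAD4 (0.00162), all 7 lower in SK-Hep1 and higher in Huh7. Under the alternatives other than leaving out an array, the value was as low as 1.09 for ATF3 and 0.84 for TGIF1. Unlike these 7, ESRRA, an orphan nuclear receptor, had -0.534 (0.00257; 0.232 in SK-Hep1 and -0.302 in Huh7). The SK-Hep1 call of ESRRA was lost in 7 of 8 fits with 1 array left out. It was also lost with background subtracted (limma adjusted p = 0.0505), without the filter (0.0758), with array weights (0.101) and with that line fitted alone (0.144). For WWTR1, higher in both lines, the value was -0.314 (0.034), lost in 6 of 8 fits with 1 array left out (0.0512 to 0.125).

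Among peptide hormones and their processing, the value was 1.03 for EDN1 (0.000455), which rose in both lines, -2.2 for SCG5 (9.8e-06; -4.14 with background subtracted) and -0.759 for CPD (0.00187). In the natriuretic peptide pathway it was -0.543 for ABCC4 (0.00189) and -0.955 for ABCC5 (0.000213), and with the probes of ABCC5 averaged it was -0.20 (0.123). Of the chromosomal neighbours, FBXO2, a ubiquitin ligase subunit 10 genes before NPPB, had -0.823 (0.000217; 0.422 and -0.401).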

How the results depend on the processing

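NPPB was higher after knockdown in both lines with background subtraction, quantile normalization and each array left out. Averaging probes could not change its values, since 1 probe reads NPPB. With background subtracted its difference was 2.43 in SK-Hep1, 4.87 in Huh7 and 2.43 larger in Huh7, and its rank in SK-Hep1 was 15. These sizes depend on how near each control lay to background in values aligned between the lines. The wider gap between the lines under this setting is therefore no result. Quantile normalization gave 1.92, 3.44 and 1.52. Leaving out 1 array gave 1.56 to 2.24, 3.39 to 3.51 and 1.21 to 1.89. Genes called in SK-Hep1 numbered 1333 with background subtracted, 1198 with array weights and 1086 with each line fitted alone, beside 2091. For the natriuretic pathway in SK-Hep1 these settings left 2, 3 and 2 calls and averaged probes 4. For heart muscle genes there, background subtraction and array weights left 0. For the neighbours there, background subtraction and single-line fits left 2. Averaged probes turned ABCC5 in SK-Hep1 to -0.0040 (limma adjusted p = 0.974). Leaving out 1 array gave 927 to 2443 calls in SK-Hep1 (lowest without control replicate 1), 2877 to 5606 in Huh7 (lowest without control replicate 1) and 2530 to 4491 between lines (lowest without Huh7 control replicate 2). By list, SK-Hep1 and Huh7 gave 2 to 7 and 2 to 8 for the natriuretic pathway, 10 to 17 and 13 to 26 for regulators, 0 to 1 and 0 to 2 for heart muscle, 6 to 8 and 9 to 10 for hormones, and 2 to 5 and 5 to 8 for neighbours. Of 84 calls on single genes, 48 held whichever array was left out and 60 under all other alternatives. Where a group was left with 1 array, it was assumed to vary like the others. The cause of these changes was not tested. No paired analysis was possible because the control and knockdown arrays of a line share no replicate number.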
